A study of Mus musculus with 48 samples.

Results

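The nuclear genes for subunits of the mitochondrial respiratory chain were followed in liver of mice after a shift of the light schedule and in control mice. Members were the protein-coding rows of the count table whose symbols name a subunit of complexes I to V (Nduf followed by a, b, c, s or v and a digit, Sdha to Sdhd, Uqcr, Cox4 to Cox8, and Atp5), with a mean of at least 10 counts over all libraries. Of 54532 genes in the table, 85 matched by symbol and biotype and 78 also met the count minimum. All 78 passed the low-count filter of the tests, so none was lost there. The 78 comprise 35 genes of complex I, 4 of complex II, 8 of complex III, 14 of complex IV and 17 of complex V.

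The 7 matching rows below the minimum were Cox6b2 (mean of 3.56 counts), Cox6a2 (2.83), Cox8b (2.08), Cox4i2 (1.17), and Cox8c, Cox7b2 and a second row named Atp5o at 0. The members nearest above it were Cox7a1 at 23.9, Ndufa4l2 at 25.5 and Atp5s at 83.9 counts. The rule takes symbols as they stand, so it also holds Atp5s (factor B, a coupling factor and no standing subunit), Cox7a2l (a factor of supercomplex assembly) and Ndufa4 (which sits in complex IV despite its name). It leaves out Ndufab1, Cyc1 (cytochrome c1, a nuclear-encoded subunit of complex III whose symbol does not match) and, by its biotype, Ndufb1-ps.

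The phase shift group was 24 libraries of wild-type male C57BL/6 mice, 8 to 10 weeks old, that went through 1 advance of the light cycle by 6 h, a model of jet lag. The control group was 24 libraries of mice of the same strain, sex and age on an unchanged cycle of 12 h light and 12 h dark. The sample titles give zeitgeber times (ZT, hours from lights-on) 0, 4, 8, 12, 16 and 20, with 4 libraries for each arm and time. Per the treatment protocol, liver was taken every 4 h on days 6 to 7 after the shift. The design text instead names ZT0 and ZT12 on day 7. The treatment field of the labels reads Phase shift for all 48 samples, so arms follow the sample titles, and the labels do not say which light cycle ZT counts from in the shifted mice or whether each library is a separate animal. P-values therefore measure the spread between these libraries.

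The respiratory chain passes electrons from NADH (complex I) and succinate (complex II) through ubiquinone to complex III, cytochrome c and complex IV, which reduces oxygen. Complexes I, III and IV pump protons, and complex V, the ATP synthase, uses the gradient to make ATP. Most subunits are encoded in the nucleus, made in the cytosol and imported, while the mitochondrial genome encodes a few core subunits of complexes I, III, IV and V. Hepatocytes hold many mitochondria, and mitochondrial respiration in liver is known to vary over the day with feeding and the clock.

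Total counts ran from 15370303 to 19639753 per library, of which the members took 1.01% to 1.87% (median 1.38%). Transcripts of the mitochondrial genome (13 protein genes and its rRNAs) took 5.69% to 19.8%, and 9 libraries stood above 8.72%, a limit of the median plus 3 median absolute deviations. In phase shift these were ZT0 replicates 1 and 2 (19.8% and 9.84%), ZT4 replicates 2 and 3 (15.0% and 13.1%) and ZT8 replicate 3 (9.09%). In control the highest was ZT12 replicate 2 (15.0%), ahead of ZT8 replicate 2 (12.8%), ZT20 replicate 1 (12.1%) and ZT4 replicate 1 (11.4%). Results of the members that rest on these high-share libraries are given with and without them. All 10 hepatocyte markers, Alb among them, were detected in all libraries.

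At the level of deposited FPKM, which scales counts by gene length, the subunits were among the more abundant liver transcripts. Of the 78 members, 75 lay above the median of all tested genes, and the member in the middle stood at percentile 95.6. The highest was Cox6a1, the liver form of a small complex IV subunit, at 635 FPKM in phase shift and 622 FPKM in control, followed by Cox8a at 528 FPKM in phase shift and 505 FPKM in control. Atp5a1, the alpha subunit of the F1 head of ATP synthase, came next at 387 FPKM in phase shift and 375 FPKM in control. The lowest were Ndufa4l2 (1.39 FPKM in phase shift and 1.41 in control), Ndufb2 (2.27 FPKM in phase shift and 2.09 in control) and Atp5s (2.36 FPKM in phase shift and 2.47 in control). Over all 48 libraries, Cox6a1 averaged 628 ± 254 FPKM and Cox8a 516 ± 176 FPKM (SD). Atp5a1 averaged 381 ± 49.0 FPKM and Atp5b, the catalytic beta subunit, 316 ± 50.1 FPKM. These genes were measured in the same libraries, and their order within libraries was not tested.

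**Figure D1:**
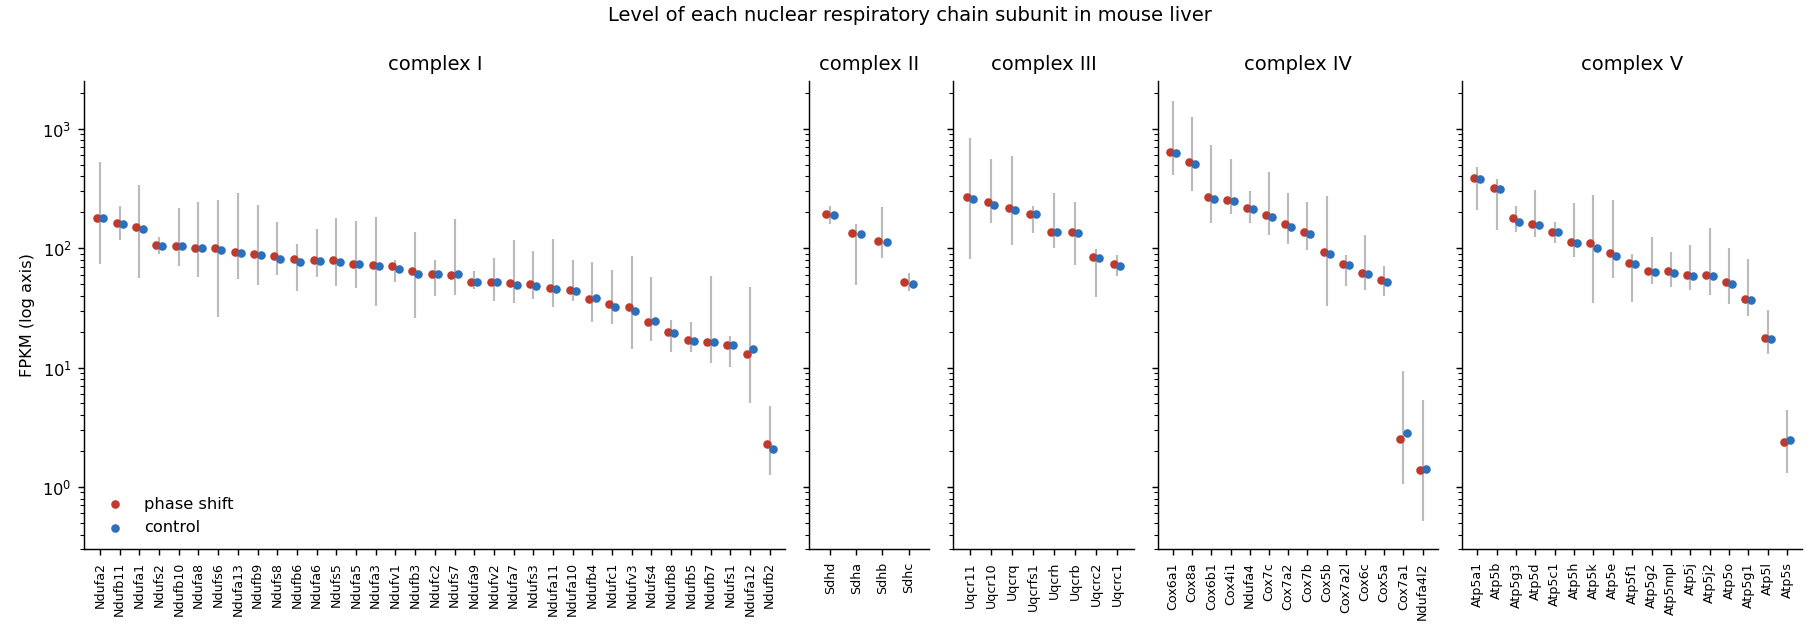
Mean deposited FPKM (log axis) of each of the 78 members in the phase shift libraries (red, left) and the control libraries (blue, right), 24 each, by complex and in order of level; grey lines span the lowest to the highest of 48 libraries. Levels ran from 1.40 FPKM for Ndufa4l2 to 628 FPKM for Cox6a1, and the red and blue means of a member lie close together beside the spread of single libraries.

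Levels differed widely within complexes. The small subunits of complex III had a median of 213 FPKM, against 78.2 FPKM for its core proteins Uqcrc1 and Uqcrc2 and 192 FPKM for the Rieske iron-sulfur protein Uqcrfs1. The 7 core subunits of complex I, which carry its flavin and iron-sulfur clusters, had a median of 59.8 FPKM, and its 28 accessory subunits one of 61.6 FPKM. In complex II the succinate-binding flavoprotein Sdha averaged 133 FPKM, its iron-sulfur partner Sdhb 113 FPKM and the membrane anchors Sdhd and Sdhc 191 and 50.9 FPKM. Gene lengths come from the deposited table and cover all exons, so a gene with a long annotated model, such as Ndufb2 at 5628 bases, reads low per length.

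Some subunits are encoded by several genes, whose shares of their summed FPKM lay close in the 2 arms. Atp5g1, Atp5g2 and Atp5g3 encode the same mature subunit c of the ATP synthase ring. Atp5g3 gave 63.7 ± 3.73% of their summed FPKM in phase shift and 63.1 ± 5.02% in control (SD, n = 24 each). Atp5g2 gave 23.0 ± 2.86% in phase shift and 23.4 ± 3.24% in control, and Atp5g1 the rest. In raw counts, which are not scaled by length, Atp5g1 stood above Atp5g2, with means of 3080 and 1810 over all libraries. Cox7a1, the heart and muscle form, gave 1.54 ± 0.441% of the summed FPKM of Cox7a1 and Cox7a2 in phase shift and 1.80 ± 0.682% in control. Ndufa4l2, known as a hypoxia-induced relative of Ndufa4, gave 0.638 ± 0.182% of their sum in phase shift and 0.641 ± 0.374% in control. It overlaps Shmt2, which is on the other strand and had a mean of 4330 counts against 25.5 for Ndufa4l2, and whether counting used strand is not given in the sources used here. The same holds for 17 members with an opposite-strand neighbour, such as Ndufs1 with Eef1b2 and Atp5j with Gabpa.

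The muscle forms also marked single libraries. Cox6a2, the heart and muscle counterpart of Cox6a1, had 116 counts in control ZT0 replicate 3 and at most 5 in any other library. The same library had 134 CPM (counts scaled to a common library size) of 6 skeletal muscle markers. Cox8b, known from muscle and brown fat, had 51 counts there and 21 in control ZT16 replicate 4, which had 8.83 CPM of 4 brown adipocyte markers. Cox7a1 in control ZT0 stood at 0.865, 1.21, 2.17 and 0.919 CPM, with the highest value in replicate 3.

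Most members moved together with the mitochondrial genome share of a library. Within groups of the same arm and time, 60 of 78 members rose and 9 fell with that share, against 51.9% of all 14555 tested genes called in either direction (edgeR's quasi-likelihood test with Benjamini-Hochberg adjustment over all genes, threshold 0.05, used for every call here). By direction the background was 25.4% of genes rising and 26.4% falling. With an unadjusted p under 0.05 there were 70 members, against 57.2% of all genes. The median member slope was 0.68 log2 units per doubling of the share, and the median over all genes -0.01. Since the libraries are bulk liver, fewer cells of a type and less RNA per cell cannot be told apart.

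The members that rose with the smallest p were mostly accessory or small subunits. Ndufs4, an accessory subunit of the NADH-binding arm of complex I, had a slope of 0.90 (SE 0.08, adjusted p = 2.98e-12). Next came Ndufs8, an iron-sulfur subunit of complex I, at 0.74, Ndufa11 at 0.92, Cox7c at 0.95 and Cox6a1 at 1.01. The largest slope was that of Uqcr11, a small subunit of complex III, at 1.10. Uqcr11 stood at 51.7, 271 and 528 CPM (lowest, median and highest) in the 9 high-share libraries, against 109, 144 and 207 CPM in the other 39. Among the 9, the lowest value was that of control ZT20 replicate 1, which lay below all 39, while the highest was that of control ZT8 replicate 2.

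The members that fell included the largest subunits. Sdha had a slope of -0.87 (SE 0.08, adjusted p = 5.62e-11), Atp5b one of -0.65, Uqcrc2 of -0.53, Atp5a1 of -0.41 and Ndufs1, the largest subunit of complex I, of -0.38. Sdha stood at 200, 424 and 549 CPM in the 9 high-share libraries, against 507, 595 and 660 CPM in the other 39. Control ZT20 replicate 1, at 549 CPM, was the only one of the 9 within the range of the 39, and the others lay below it. Subunits of the same enzyme moved apart: in complex II, Sdha fell while Sdhb rose, at 0.58, and in complex I the core set split into 4 that rose and 3 that fell.

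The direction went with the length of the coding sequence. Of the 67 members with a longest coding sequence under 1000 bases, 58 rose and 2 fell, with a median slope of 0.70. Of the 11 with 1000 bases or more, 2 rose and 7 fell, with a median of -0.13. Across the 78 members slope and coding length had a Spearman rho of -0.57, given as a description, since the genes share libraries. Other protein-coding genes showed the same order: their median slope was 0.63 for coding sequences under 300 bases and -0.28 for those of 2500 or more, and rho over 12698 genes was -0.40. In the shortest class, under 300 bases, all 20 members rose, against 68.1% of 213 other genes.

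**Figure D2:**
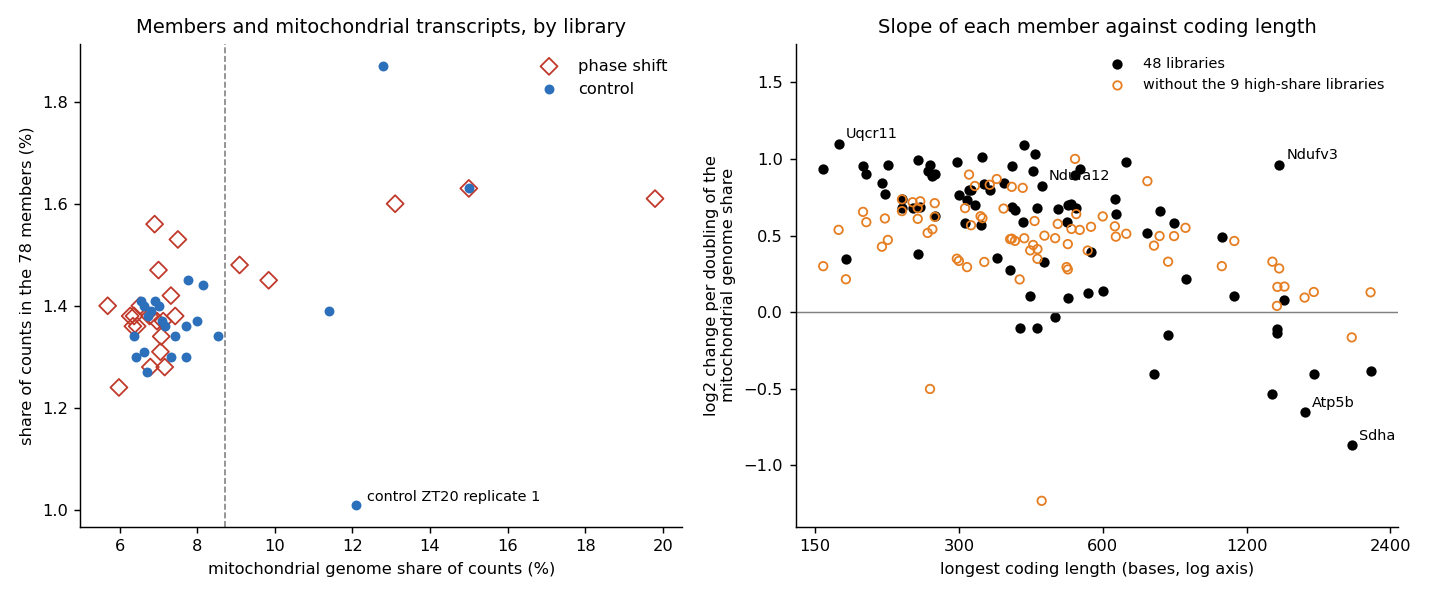
Left, share of counts in the 78 members against the mitochondrial genome share, both in percent, for the phase shift libraries (open red diamonds) and the control libraries (blue circles); the dashed line is the limit of 8.72%, and control ZT20 replicate 1 lies lowest at 1.01%. Right, slope of each member (log2 change per doubling of the mitochondrial genome share) against its longest coding length in bases (log axis), for all 48 libraries (black) and without the 9 high-share libraries (open orange).

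The direction of the long members rested on the high-share libraries. Without them, 5 members were called, all rising, against 0.97% of all genes, and 75 of 78 slopes were positive, with a median of 0.50. The order by length stayed, with a rho of -0.39 and median slopes of 0.165 at 1000 bases or more and 0.537 below. The share then ran only from 5.69% to 8.53%, and the part of this narrower range in the fewer calls was not tested. Of the 9 members that fell with all libraries, 8 then had positive slopes, such as 0.10 for Atp5b, 0.33 for Uqcrc2, 0.13 for Atp5a1 and 0.13 for Ndufs1, and Sdha had -0.16, none of them called. Within phase shift alone 62 members rose and 6 fell, against 43.3% of all genes called, and within control alone 55 rose and 6 fell, against 30.8%. Without control ZT20 replicate 1, the library with a high share and few member counts, 63 rose and 7 fell, against 56% of all genes, with a median of 0.77.

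Markers of some other cell types moved with the same share. All 12 Kupffer cell markers fell with it, with a median slope of -2.51, and their summed level was 26.5 to 312 CPM (median 96.4) in the 9 high-share libraries, against 192 to 894 CPM (median 426) in the other 39. All 12 sinusoidal endothelial markers fell, with a median slope of -2.15 and a summed level of 47.9 to 409 CPM in the 9 libraries, against 208 to 674 CPM in the others. Of 10 hepatocyte markers 3 rose and 3 fell, and their sums ran from 89000 to 156000 CPM in the 9 libraries, against 83000 to 120000 CPM in the others. Of 12 stellate cell and fibroblast markers 1 rose and 2 fell, and their sums overlapped, at 220 to 565 CPM (median 445) in the 9 libraries, against 294 to 514 CPM (median 426) in the others. Of 5 cholangiocyte markers 2 fell, with sums of 14.6 to 50.7 CPM in the 9 libraries, against 16.5 to 89.9 CPM in the others. Of 5 red blood cell genes 4 rose, with sums of 263 to 902 CPM in the 9 libraries, against 225 to 608 CPM in the others. The part of cell makeup in the members' slopes was not tested.

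Genes that act with the subunits gave a mixed picture on the same slope. Of 46 tested assembly factors of the chain, 30 rose (65.2%, against 25.4% of all genes) and 3 fell (6.52%, against 26.4%), with a median slope of 0.33. The first 4 by p were Cox19 (0.94), a copper-related factor of complex IV, Uqcc3 (0.99), a factor of complex III, Sdhaf2 (0.49), which helps to attach FAD to Sdha, and Coa3 (0.85). Of 20 transcription factors, coactivators and mitochondrial replication or transcription proteins, none rose and 7 fell (35.0%, near the 26.4% of all genes), led by Polg (-0.84), the mitochondrial DNA polymerase, Gabpa (-0.57), an ETS factor that binds many subunit promoters, Tfb2m (-0.39) and Ppargc1b (-0.93). The 13 subunits encoded by the mitochondrial genome rose by construction, since they make up the share. Cytochrome c (Cycs), the carrier between complexes III and IV, had a slope of 0.16 (adjusted p = 0.0707).

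Promoters of the members were read from RefSeq for GRCm38.p6, from 250 bases before to 50 after the start. Symbols or synonyms matched 65 members, with 70 promoters. NRF1 (nuclear respiratory factor 1) is a known regulator of these genes, and its letters, GCGC, any base and then TGCGC, searched on both strands like all motifs here, stood in 17 of 65 members (26.2%) and in 4.6% of 32851 promoters of the same length. The YY1 letters AAGATGGC stood in 15.4% of members and 2.75% of all promoters, the GABPA letters CCGGAAGT in 7.69% and 3.89%, and the E-box CACGTG, bound by clock factors, in 9.23% and 7.15%. The letters of the estrogen-related receptor, TCAAGGTCA, stood in 3.08% and 0.423%. The TATA box letters TATAAA were less frequent in members, at 7.69%, against 13.6% of all promoters. Member promoters had a median GC content of 58.0%, against 52.7% for all, and a match is a description of letters and not of binding.

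The promoters of 4 members are shown because their genes stand at the ends of the patterns described here: Sdha (chr13:74350191-74350490, minus strand) fell and Cox6a1 (chr5:115348909-115349208, minus strand) rose with the mitochondrial share, Ndufa8 (chr2:36049289-36049588, minus strand) had the clearest daily rhythm of complex I in control, and Atp5s (chr12:69724695-69724994, plus strand) had one in both arms. Capitals mark the NRF1 letters on either strand.
Sdha: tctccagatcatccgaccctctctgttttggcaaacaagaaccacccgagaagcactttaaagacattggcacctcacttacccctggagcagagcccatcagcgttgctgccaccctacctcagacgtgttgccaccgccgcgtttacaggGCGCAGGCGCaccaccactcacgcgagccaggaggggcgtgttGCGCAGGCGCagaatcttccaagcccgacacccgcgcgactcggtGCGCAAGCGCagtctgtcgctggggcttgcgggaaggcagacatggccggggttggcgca
Cox6a1: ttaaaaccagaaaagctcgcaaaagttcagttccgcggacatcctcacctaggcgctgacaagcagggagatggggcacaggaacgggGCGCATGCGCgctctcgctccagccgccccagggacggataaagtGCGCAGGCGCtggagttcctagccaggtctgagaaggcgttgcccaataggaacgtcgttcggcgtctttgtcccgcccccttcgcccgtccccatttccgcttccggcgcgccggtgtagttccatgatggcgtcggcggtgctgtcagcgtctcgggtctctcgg
Ndufa8: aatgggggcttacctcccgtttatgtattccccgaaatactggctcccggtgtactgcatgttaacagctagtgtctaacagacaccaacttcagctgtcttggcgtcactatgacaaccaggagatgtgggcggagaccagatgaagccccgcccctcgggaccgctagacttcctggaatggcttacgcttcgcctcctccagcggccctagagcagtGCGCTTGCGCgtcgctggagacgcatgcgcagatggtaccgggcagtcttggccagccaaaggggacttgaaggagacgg
Atp5s: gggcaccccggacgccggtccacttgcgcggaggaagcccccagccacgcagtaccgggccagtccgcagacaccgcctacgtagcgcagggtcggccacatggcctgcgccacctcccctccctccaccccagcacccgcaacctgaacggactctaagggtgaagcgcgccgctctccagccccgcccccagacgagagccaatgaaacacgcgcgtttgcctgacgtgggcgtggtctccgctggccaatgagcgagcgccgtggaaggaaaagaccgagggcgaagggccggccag

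Sdha carries the NRF1 letters in 3 places and Cox6a1 in 2, and their slopes had opposite signs. Over the matched members the median slope was 0.68 with the letters (n = 17) and 0.68 without them (n = 48). The Atp5s window held none of the letters searched for NRF1, GABPA or YY1.

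The main question of the design for these genes is whether the advance changed their level. Averaged over the 6 times, none of the 78 members differed between phase shift and control, nor did any other gene (background 0%). The median member difference, phase shift minus control, was 0.04 log2 units, with 70 members positive and 8 negative, and 1 member had an unadjusted p under 0.05, against 6.45% of all genes. Atp5g3, the main source of subunit c, had the smallest p, with a difference of 0.10 (SE 0.04, adjusted p = 0.647). It was followed by the complex I flavoprotein Ndufv1 (0.07, SE 0.04, adjusted p = 0.793) and the complex IV subunit Cox5a (0.08, SE 0.05, adjusted p = 0.877).

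The anchors of the complexes lay closer still to zero. Ndufs1 had an average difference of -0.01 (SE 0.06), Sdha of 0.03 (SE 0.10), Uqcrc1 of 0.06 (SE 0.04), Cox4i1 of 0.03 (SE 0.09) and Atp5b of 0.04 (SE 0.08). Medians by complex ran from 0.03 in complex II to 0.04 in complex V. On simulated data for this comparison, the test recovered 85% of genes changed by 0.5 log2 units among 14555. Genes were simulated independently, with no daily profile and no joint movement in high-share libraries, so this rate need not hold for the members.

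At single times the members as a set lay above or below control, but none passed the test at any time. At ZT0 the median difference was 0.38 with 67 members positive (0 called, background 0%), at ZT4 0.27 with 72 positive (0 called, background 0.117%), at ZT8 -0.35 with 15 positive (0 called, background 0.131%), at ZT12 -0.26 with 13 positive (0 called, background 0%), at ZT16 0.06 with 61 positive (0 called, background 0%) and at ZT20 0.12 with 68 positive (0 called, background 0.295%). Unadjusted p-values under 0.05 were found for 14 members at ZT0 (17.9%, against 7.37% of all genes) and 9 at ZT8 (11.5%, against 11.7%). There were 2 at ZT4 (against 9.21% of all genes), 1 at ZT12 (4.98%), 0 at ZT16 (4.42%) and 1 at ZT20 (7.33%).

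The arms did not carry the high-share libraries at the same times, and the differences at ZT0 to ZT12 shrank without them. The 9 libraries sit in phase shift at ZT0 (2), ZT4 (2) and ZT8 (1), and in control at ZT4, ZT8, ZT12 and ZT20 (1 each). Without them the median member difference was 0.02 at ZT0, 0.01 at ZT4, -0.03 at ZT8, -0.05 at ZT12, 0.06 at ZT16 and 0.05 at ZT20. With the share as a covariate it was 0.02 at ZT0 and -0.01 at ZT12, but 0.29 at ZT20. There 34 members then had an unadjusted p under 0.05 and none was called, and the share of all genes under 0.05 was not taken for that fit. Without the 9 libraries 1 member had an unadjusted p under 0.05 at ZT20. The covariate fit holds control ZT20 replicate 1, with a share of 12.1% but only 1.01% of counts in members, and its part was not tested. At ZT8, leaving out control ZT8 replicate 2 alone gave 0.07, and at ZT0, leaving out phase shift ZT0 replicate 1 alone gave 0.07. Kupffer markers ran the other way at the same times, with medians of -0.38 at ZT0, -0.32 at ZT4, 0.70 at ZT8 and 0.54 at ZT12, none of them called.

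**Figure D3:**
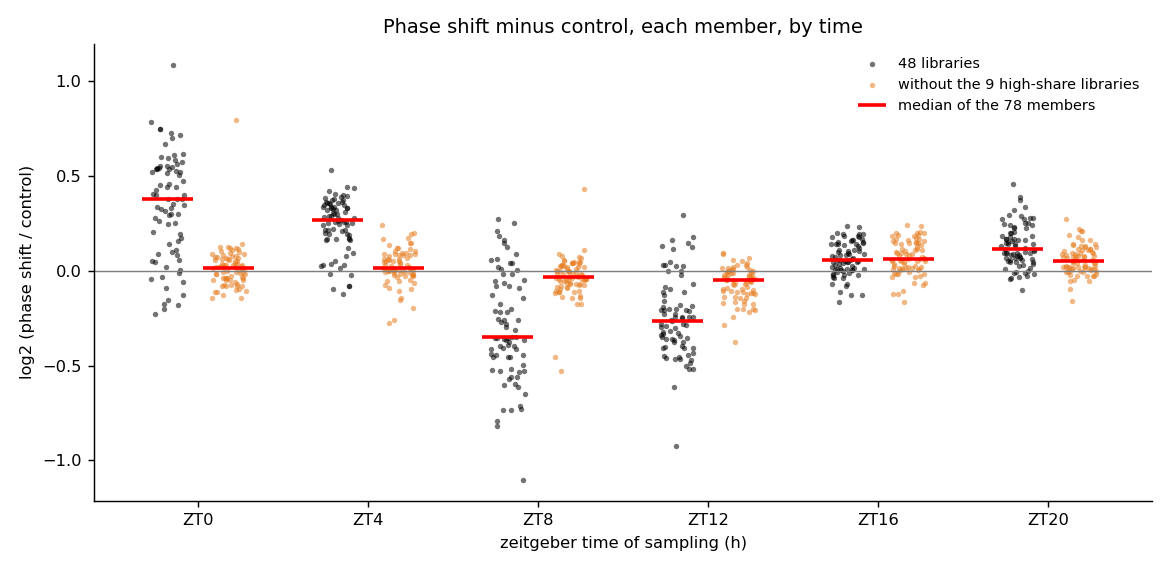
Log2 ratio of phase shift over control for each of the 78 members (points, spread sideways for legibility) at each zeitgeber time, with all 48 libraries (black) and without the 9 high-share libraries (orange); red bars are medians. Medians of 0.38 at ZT0 and -0.35 at ZT8 become 0.02 and -0.03 without those libraries.

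The members with the smallest p at each time show how single libraries enter. Ndufs8 at ZT0 had 146, 86.4, 71.3 and 70.4 CPM in phase shift, against 75.6, 60.6, 66.5 and 58.4 CPM in control (log2 difference 0.52, SE 0.22, adjusted p = 0.657). The groups overlapped, and the 2 highest phase shift values came from the high-share libraries. Ndufb7 (0.79) and Ndufs5 (0.58) followed at ZT0 with the same adjusted p.

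Ndufa9, an accessory subunit of complex I, had 118, 122, 136 and 108 CPM in phase shift at ZT4, against 103, 96.8, 107 and 111 CPM in control (0.22, SE 0.09, adjusted p = 0.380). One phase shift library lay below the highest control library. Ndufb8 (0.26, adjusted p = 0.483) and Ndufb2 (0.53, adjusted p = 0.550) came next. Cox7a1 at ZT8 had 1.18, 0.879, 1.17 and 0.908 CPM in phase shift, against 1.77, 5.00, 0.768 and 1.498 CPM in control (-1.10, SE 0.43, adjusted p = 0.326). The groups overlapped, and the value of 5.00 belongs to control ZT8 replicate 2. At ZT8 Ndufb7 (-0.82) and Ndufa8 (-0.56) followed, both with adjusted p = 0.372.

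Uqcrb, the ubiquinone-binding small subunit of complex III, had the smallest p of the members at ZT12, without passing the test. It had 104, 108, 93.1 and 86.6 CPM in phase shift, against 117, 190, 120 and 121 CPM in control (-0.48, SE 0.21, adjusted p = 0.806). All 4 phase shift libraries lay below all 4 control libraries, and the value of 190 came from a high-share library. Ndufa12 (-0.92) and Atp5j (-0.37) came next at ZT12, with the same adjusted p.

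Ndufv1 at ZT16 had 201, 195, 192 and 183 CPM in phase shift, against 185, 174, 174 and 165 CPM in control (0.14, SE 0.09, adjusted p = 1.00). The lowest phase shift library lay under the highest control library. Ndufa1 (0.23) and Uqcrc1 (0.07) followed. Atp5g3 at ZT20 had 420, 459, 489 and 402 CPM in phase shift, against 312, 405, 386 and 385 CPM in control (0.25, SE 0.10, adjusted p = 0.532). Only the lowest phase shift and the highest control library crossed, and the lowest control value was that of ZT20 replicate 1. Sdhd (0.16) and Ndufa8 (0.39) followed at ZT20.

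Most members had no called daily rhythm. In phase shift, 4 of 78 members had a 24 h rhythm (5.13%), against 28.2% of all tested genes, and in control 15 (19.2%), against 27.3%. With an unadjusted p under 0.05 there were 8 in phase shift, against 39.1% of all genes, and 42 in control, against 40.5%. A test of any change over the 6 times called 2 in each arm, Cox7a2l and Atp5s in phase shift (background 21.2%) and Atp5s and Ndufa8 in control (background 19.2%), with 5 members in each arm at an unadjusted p under 0.05, against 33.3% of all genes in phase shift and 32.8% in control. Without the 9 high-share libraries it called 13 members in phase shift (24.5% of all genes) and 4 in control (18.8%), and with the share as a covariate 8 in phase shift (25.7%) and 7 in control (28.5%). With no filter on low counts the time test called 1 member in phase shift (8.31% of all genes) and 1 in control (6.87%). The rhythm count in control was 4 with no filter (12.3%), 4 in limma-voom (25.6%) and 21 in DESeq2 (15.1%). Leaving out 1 library moved it between 3 (without control ZT8 replicate 2 or ZT12 replicate 2) and 31 (without control ZT8 replicate 1), and the rhythm count in phase shift was 2 without phase shift ZT0 replicate 1. The share of all genes called with 1 library left out is not given here, so these counts show only how far the number moved. All 17 core clock genes had a 24 h rhythm in both arms.

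Atp5s had the clearest rhythm in both arms. At ZT8 it had 7.51, 5.74, 7.86 and 4.28 CPM in phase shift, against 7.31, 8.96, 5.26 and 5.33 CPM in control, and at ZT20 3.48, 3.83, 4.58 and 3.22 CPM in phase shift, against 3.34, 2.72, 3.45 and 4.59 CPM in control. In control the 2 times did not overlap, and in phase shift they did by 1 library. The ZT8 values of 7.86 and 8.96 CPM came from high-share libraries, and the rhythm was also called in both arms without the high-share libraries. The fitted log2 amplitude was 0.40 (SE 0.08) with a peak at ZT 6.89 h (SE 0.729) in phase shift (adjusted p = 0.000791) and 0.47 (SE 0.09) with a peak at ZT 7.20 h (SE 0.733) in control (adjusted p = 0.000223). The rhythm did not pass a test of difference between arms (adjusted p = 0.915).

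Cox7a2l, the supercomplex factor, had a called rhythm in phase shift. At ZT0 it had 63.5, 75.9, 79.7 and 68.0 CPM in phase shift, against 79.8, 79.7, 86.1 and 80.5 CPM in control, and at ZT12 102, 98.6, 101 and 86.7 CPM in phase shift, against 92.3, 83.2, 87.3 and 93.4 CPM in control. In phase shift all ZT12 libraries lay above all ZT0 libraries, while in control the 2 times overlapped. Its amplitude was 0.19 (SE 0.03, adjusted p = 0.000920) with a peak at ZT 12.7 h in phase shift and 0.09 (SE 0.04, adjusted p = 0.214) in control, and the difference of rhythm had an adjusted p of 0.243.

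Sdhd, an anchor of complex II, had a small called rhythm in both arms, of which that in phase shift was often lost. At ZT0 it had 217, 229, 220 and 220 CPM in phase shift, against 232, 199, 212 and 215 CPM in control, and at ZT16 268, 245, 247 and 249 CPM in phase shift, against 260, 248, 252 and 262 CPM in control. ZT16 lay above ZT0 without overlap in each arm. The amplitude was 0.11 (SE 0.03, adjusted p = 0.0448) in phase shift and 0.11 (SE 0.03, adjusted p = 0.0457) in control, with peaks at ZT 16.4 h in phase shift and ZT 13.8 h in control. The phase shift call passed under 35 of 56 alternatives, with adjusted p between 0.0150 and 0.140. It was lost with the share as a covariate (adjusted p = 0.0887). The control call was followed only with that covariate and without the high-share libraries, and passed in both. The other alternatives were not read for it, so the 2 arms cannot be ranked by how often the call held.

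**Figure D4:**
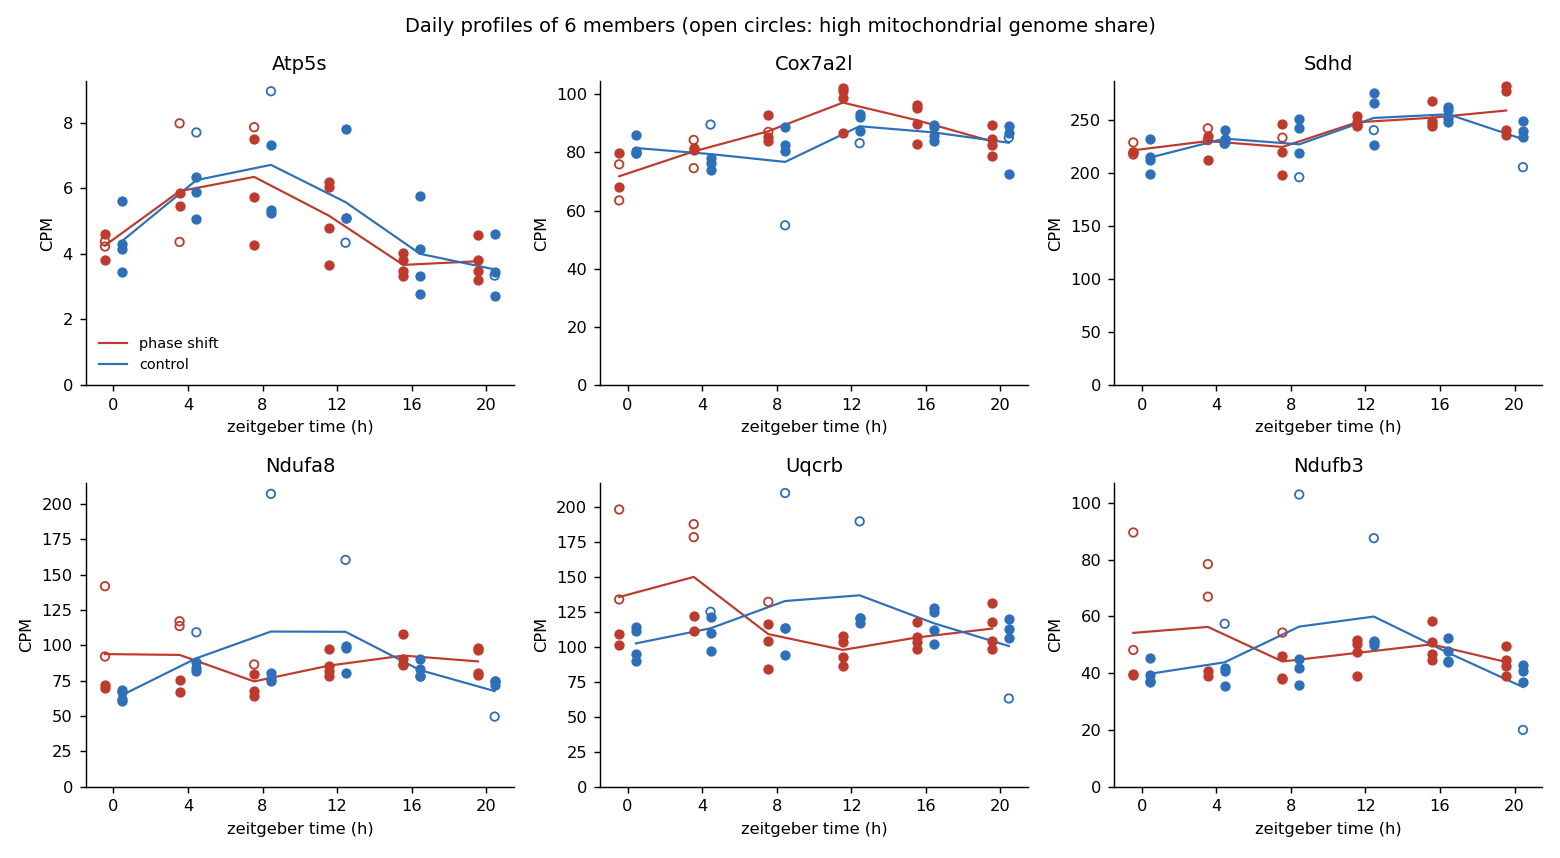
CPM of 6 members in each library by zeitgeber time (h), phase shift in red to the left and control in blue to the right, with lines through the means of 4 libraries; open circles are high-share libraries. The highest values of Cox7a2l and Sdhd are filled circles, whereas those of Ndufa8, Uqcrb and Ndufb3 are open circles at ZT0 and ZT4 in phase shift and at ZT8 and ZT12 in control. The highest value of Atp5s is an open circle at ZT8 in control.

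The other members called in control were mostly accessory subunits of complex I: 11 of its 28 accessory subunits (39.3%) and 0 of its 7 core subunits, against 27.3% of all genes. That split was lost without the 9 high-share libraries, where 6 accessory subunits (21.4%) and 4 core subunits (Ndufs1, Ndufs3, Ndufs8 and Ndufv2) were called, against 21.8% of all genes. With the share as a covariate, 9 accessory and 3 core subunits were called, against 32.3%. Ndufa8, which is held in the space between the membranes, led them. At ZT0 it had 142, 92.2, 71.8 and 69.7 CPM in phase shift, against 68.5, 62.4, 60.9 and 67.3 CPM in control, and at ZT8 79.8, 67.7, 86.5 and 64.1 CPM in phase shift, against 80.8, 207, 74.8 and 76.5 CPM in control. The arms did not overlap at ZT0 and did at ZT8, and control at ZT8 lay above control at ZT0 in every library. The amplitude was 0.10 (SE 0.08, adjusted p = 0.627) in phase shift and 0.37 (SE 0.10, adjusted p = 0.00178, peak at ZT 9.79 h) in control.

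The 12 control calls beside Atp5s, Ndufa8 and Sdhd had amplitudes up to 0.52 and peaks between ZT 8.24 h and ZT 10.8 h. They were Ndufb3 (amplitude 0.34), Ndufb7 (0.32), Cox5b (0.35), Ndufs5 (0.27), Atp5g1 (0.21), Ndufs6 (0.37), Ndufv3 (0.31), Ndufa1 (0.31), Ndufa11 (0.27), Ndufa12 (0.52), Ndufa13 (0.29) and Ndufb10 (0.24). In phase shift the other call was Uqcrb, with an amplitude of 0.25 (SE 0.08, adjusted p = 0.0221) and a peak at ZT 1.77 h. At ZT0 Uqcrb had 198, 134, 101 and 109 CPM in phase shift, against 111, 95.3, 114 and 89.7 CPM in control, and the 2 values of 134 and 198 came from high-share libraries. The Uqcrb call was lost without the 9 high-share libraries (adjusted p = 0.282) and with the share as a covariate (adjusted p = 0.539).

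Peak times of the members as a set depended on those libraries. With all libraries the circular mean of the 78 fitted peaks was ZT 0.372 h in phase shift and ZT 11.1 h in control, whereas without the 9 libraries it was ZT 17.1 h in phase shift and ZT 15.0 h in control. Without them, 24 members were called in phase shift (32.4% of all genes) and 12 in control (21.8%). With the share as a covariate, 13 were called in phase shift (31.8% of all genes) and 18 in control (32.3%), with circular means of ZT 16.2 h in phase shift and ZT 11.9 h in control. Called in all of these fits were Atp5s and Cox7a2l in phase shift, and Atp5s, Ndufa8, Ndufa13, Ndufb3, Ndufb10 and Sdhd in control.

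No member differed in rhythm between arms (0 called, background 0.186%), although 48 of 78 (61.5%) had an unadjusted p under 0.05, against 19.3% of all genes. The smallest p were those of Ndufa8 and Uqcrb (adjusted p = 0.128 for both) and Atp5g1 (adjusted p = 0.149). DESeq2 called Ndufa8 and Uqcrb (adjusted p = 0.0321 and 0.0375), against 0.614% of all genes. Without the 9 libraries, 4 members had an unadjusted p under 0.05 and none was called (background 0.14%), and with the share as a covariate Ndufa8 was called (adjusted p = 0.0318), against 0.495% of all genes. The test of any difference of the time course called none (background 0.137%), with 10 members at an unadjusted p under 0.05, against 11% of all genes, and with Ndufa8, Uqcrb and Ndufb7 at adjusted p = 0.398, 0.411 and 0.421.

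The same test for 24 h rhythm was read for genes that act with the subunits, with all libraries only. Of all genes, 28.2% had a rhythm in phase shift and 27.3% in control. Of 46 assembly factors, 5 had one in phase shift (10.9%) and 16 in control (34.8%), with Uqcc1 and Coa6 called in both. Of the 20 regulators, 5 had one in phase shift (25.0%, close to the share of all genes) and 9 in control (45.0%), and Esrra, the estrogen-related receptor alpha, and its corepressor Nrip1 were called in both. Of 11 genes of supercomplexes and cristae, 2 were called in phase shift (18.2%), Cox7a2l itself and Immt, which shapes the cristae junctions, and 3 in control (27.3%, as for all genes), among them the prohibitins Phb2 and Phb. Cycs was called in both arms (adjusted p = 0.00318 in phase shift and 0.0223 in control). Of 13 subunits encoded by the mitochondrial genome, 7 were called in phase shift (53.8%) and 0 in control. These 13 are part of the mitochondrial genome share itself, and the high-share libraries of phase shift sit at ZT0, ZT4 and ZT8. None of these lists had a call for a difference of rhythm between arms. The part of the high-share libraries in the calls of these lists was not tested.

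Ndufa12, an accessory subunit of complex I, was the most variable member, with a coefficient of variation of 61.7% in FPKM over all 48 libraries, and its counts split with those of another gene. Gm15920, a processed pseudogene at chr5:130188395-130188796, is a near copy of the spliced coding sequence of Ndufa12 (gene at chr10:94198720-94221443): 397 of 399 aligned bases were the same (99.5%). The first 150 aligned bases, bases 49 to 198 of the Ndufa12 coding sequence and bases 1 to 150 of Gm15920 in GENCODE M21 on GRCm38, are shown because the genes differ there in a single base, which is in capitals.
Ndufa12: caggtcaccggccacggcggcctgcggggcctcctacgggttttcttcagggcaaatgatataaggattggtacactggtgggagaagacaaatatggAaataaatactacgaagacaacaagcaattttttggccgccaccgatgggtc
Gm15920: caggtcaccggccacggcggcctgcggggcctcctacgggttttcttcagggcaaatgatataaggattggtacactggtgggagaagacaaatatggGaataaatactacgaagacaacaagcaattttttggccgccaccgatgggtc

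Ndufa12 averaged 359 counts and Gm15920 370. In 37 libraries Ndufa12 held 24.7% to 46.9% of their sum, and in the other 11 it held 54.0% to 84.2%. The 11 comprised 5 phase shift and 6 control libraries, of which 4 were high-share libraries. In the 39 other libraries the coefficient of variation was 49.1% for Ndufa12, 31.2% for Gm15920 and 16.1% for their sum. The control rhythm of Ndufa12 (adjusted p = 0.0373) and its negative slope without the high-share libraries (-1.23) stand beside this split, whose part in them was not tested.

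**Figure D5:**
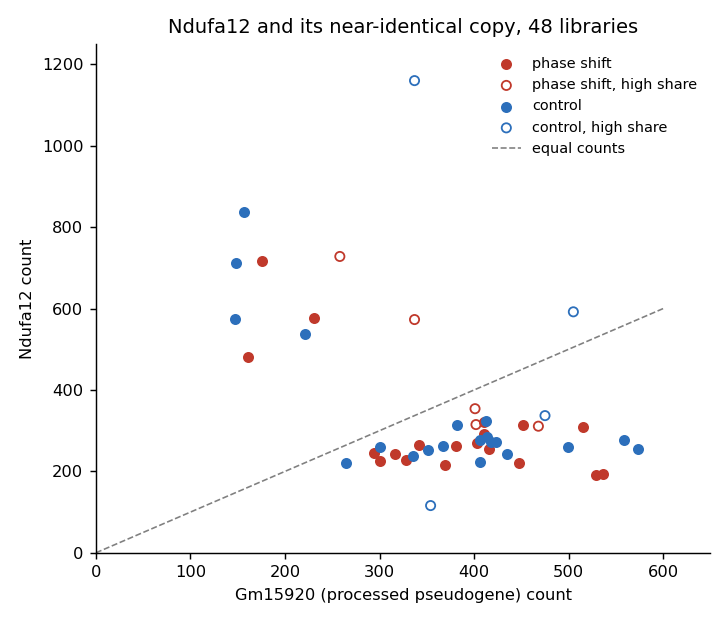
Count of Ndufa12 against the count of its processed pseudogene Gm15920 in each of 48 libraries (phase shift in red, control in blue, high-share libraries open); the dashed line marks equal counts. In 11 libraries Ndufa12 lies above the line, in both arms, and in 37 below it.

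Copies touched other members less. Runs of 50 identical bases were shared by protein-coding transcripts of 32 members with an annotated pseudogene elsewhere, and for 15 members that pseudogene had a mean of at least 10 counts. Atp5l shared 52.5% of its runs with Gm10221 and held a median of 75.7% of their summed counts, Atp5g1 held 80.2% beside Gm10039, and Atp5h 87.8% beside Gm10250. In each of these pairs except Ndufa12 the member had the higher count in all 48 libraries. Values of these members are uncertain to that extent, since how reads with several matches were counted is not given in the sources used here.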

How the data were processed

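RNA sequencing of mouse liver was summarised by the authors as a table of raw counts per gene and a table of FPKM (counts scaled by gene length and library, deposited by the authors) for 48 libraries. Per the labels' protocols a company mapped and quantified the reads, and per the submitters' processing notes the build was mm10; aligner, counter and strand setting: not given in the sources used here. The members and gene lists were chosen with earlier results of these data known. Counts were analysed in R 4.3.3 with edgeR 4.0.16: 14555 genes passed filterByExpr (12 groups). Scaling was by TMM, and robust quasi-likelihood models held 12 group means over 48 libraries, a 24 h cosine and sine per arm for rhythm, and a slope on log2 mitochondrial genome share within groups. Benjamini-Hochberg adjustment ran over all tested genes at 0.05. Differences are phase shift minus control. CPM were scaled by TMM library sizes, and amplitudes and peaks come from least squares on log2 CPM (prior count 2). FPKM served for levels and for the shares of paralogues. A count of 0 allows up to 3 counts, for counting error alone. DESeq2 1.42.0, limma 3.58.1, other scalings and left-out libraries were alternatives. Coding lengths and transcripts came from GENCODE M21 and alignments from biotite 1.4.0. Each fit was tested on simulated data. Named were fixed anchors, paralogues, the 5 smallest p in each direction among called members (10 per arm for rhythm, the 3 smallest where none passed), up to 4 per list and the 3 highest and lowest levels, and a few others, such as Ndufa12, Cox6a2 and Uqcr11, were chosen after their values were seen.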

Additional observations from a re-analysis of the deposited data

Results flagged for a closer look

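In groups of 4 libraries, a library was marked when its gap to the nearest other as a part of the range of its group exceeded Dixon's critical value, which chance passes in about 1 of 20 groups. Of 54 groups of values examined, 8 held such a library, and in 6 of them it was a library with a high mitochondrial genome share. Those 6 include groups of the share itself, which defines these libraries. The member values examined were those of groups printed above, mostly chosen by a small p, so the rate of 1 in 20 does not hold for them. In phase shift, the members took 1.53% of the counts in ZT16 replicate 1, the highest of its group. In control, the mitochondrial genome share was 11.4% in ZT4 replicate 1 and 12.1% in ZT20 replicate 1. The members took 1.87% of the counts in control ZT8 replicate 2 and 1.01% in control ZT20 replicate 1, the highest and the lowest of their groups and of all libraries. Single members stood apart in control for Ndufa8 at ZT8 (207 CPM, replicate 2), Uqcrb at ZT12 (190 CPM, replicate 2) and Cox7a2l at ZT0 (86.1 CPM, replicate 3). The last of these is the library with muscle markers at 134 CPM.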

How the results depend on the processing

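No count of members called for the average difference or the 6 single times changed under any alternative tried. The time effect called 2 members in each arm as reported. In phase shift it called 1 without a filter on low counts (8.31% of all genes), 4 in DESeq2 (13%), 13 without the 9 high-share libraries and 8 with the share as covariate, and in control 1 without a filter (6.87%), 1 in limma-voom (19.2%), 4 without the 9 libraries and 7 with the covariate. The 24 h rhythm called 4 members in phase shift, but 24 without the 9 libraries and 13 with the covariate, and 15 in control, but 4 without a filter (12.3%), 4 in limma-voom (25.6%), 7 with a replicate block (26.5%) and 21 in DESeq2 (15.1%). The rhythm difference called 2 in DESeq2 and 1 with the covariate, and the slope called 5 without the 9 libraries (an alternative chosen after seeing the data). Leaving out 1 library at a time gave 1 to 2 members for the time effect in phase shift and 1 to 2 in control, 2 to 6 for the rhythm in phase shift and 3 to 31 for the rhythm in control. These counts stand without the share of all genes called in the same fits, and show only how far the numbers moved. The control count was 3 without ZT8 replicate 2 or ZT12 replicate 2, 6 without ZT20 replicate 1, 7 without ZT0 replicate 2, 9 without ZT0 replicate 4, 31 without ZT8 replicate 1, 26 without ZT8 replicate 3 or 4 and 24 without phase shift ZT0 replicate 1, and the phase shift count was 2 without phase shift ZT0 replicate 1. The time effect called 1 without phase shift ZT0 or ZT8 replicate 1, and 1 without control ZT0 replicate 2, 3 or 4, ZT12 replicate 2 or ZT20 replicate 1. The slope turned positive without the 9 libraries for Atp5b (0.10), Uqcrc2 (0.33), Atp5a1 (0.13) and Ndufs1 (0.13), and Ndufb7 at ZT8 ran from -1.03 to 0.077 with 1 library left out, the last without control ZT8 replicate 2. Beyond the share covariate and the left-out libraries, the cause of these changes was not tested. Replicate numbers did not pair libraries across arms: the 24 pairs with the same number and time had a mean correlation of -0.06 (-0.42 to 0.16), and 11 of 48 libraries were closest to one with their own number. At a single time the depth and 4 libraries a group limit what can be seen: on simulated data the ZT8 test recovered 19% of genes changed by 0.5 log2 units among 14555. Those genes were simulated independently, without the joint movement in high-share libraries, so this rate need not hold for the members.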
